A study of Laccaria bicolor with 4 samples.

Results

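The genes described here were 49 of the 23125 genes quantified in mycelium of the basidiomycete *Laccaria bicolor*. Each had 5 TPM or more in all 4 libraries, and the lower of its vitamin C values was at least 1.5 times the higher of its untreated values. TPM is a measure of transcript abundance that is corrected for gene length and has the same total in every library. The minimum of 5 TPM was reached in every library by 9837 genes, of which the 49 are 0.498%. The rule read the TPM of all 4 libraries, so the difference between conditions is a description of the chosen genes and carries no test.

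All 4 libraries came from total RNA of strain S238N-H82, grown as free mycelium in liquid culture for 8 weeks with no plant partner. Untreated mycelium gave 2 libraries, and mycelium exposed to 5 mM vitamin C for 2 days gave the other 2. Ribosomal RNA was depleted before a stranded library was made. The submitters call the libraries of a condition biological replicates, and the sources used here do not say whether they came from separate cultures or days.

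*L. bicolor* is an ectomycorrhizal fungus, which forms a symbiosis with tree roots and also grows alone as mycelium. Vitamin C (ascorbate) is a reducing agent and antioxidant. It keeps iron in the reduced form that TET/JBP and other iron-dependent dioxygenases need, and the study used it to raise the oxidation of 5-methylcytosine in DNA and RNA. The files give neither names nor products for the genes, and 0 of the identifiers matched the RefSeq annotation of the first assembly. The genes are therefore described by their position on the V2 genome, level, span and neighbours, and nothing is said of their function.

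The libraries did not group by condition at every gene. Over the 9837 genes, 6.78% differed 1.5-fold or more between untreated replicate 1 and vitamin C replicate 2, against 14.0% between the untreated replicates and 7.76% between the vitamin C replicates. Untreated replicate 2 and vitamin C replicate 2 were the farthest apart, with 23.1% of genes. The order of the closest pairs depended on the measure. By the standard deviation of the log2 ratio, the vitamin C replicates were closest, at 0.294. The mixed pair with 6.78% had 0.330, and the untreated replicates 0.380. The median log2 ratio was 0.162 for the vitamin C replicates and -0.01 for that mixed pair. The share of genes counts such a shift, which the standard deviation leaves out. The aligned bases behind the values, from the ratio of coverage to FPKM, were 4.20 and 4.40 Gb in the untreated libraries and 5.65 and 4.27 Gb with vitamin C. Vitamin C replicate 1 was the deepest library.

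The same rule was applied to every way of setting 2 libraries over the other 2. With vitamin C over untreated it chose the 49 genes, and in the opposite direction, untreated over vitamin C, it chose 181 (1.84%). With untreated replicate 2 and vitamin C replicate 1 over the other libraries it chose 147 genes (1.49%), although this pairing holds no contrast of treatment. The 3 remaining pairings chose 4 (0.0407%), 1 (0.0102%) and 0 genes. The count of 49 was below that of a pairing that mixes the conditions. At a ratio of 2 or more the order was different. Vitamin C over untreated then gave 10 genes and untreated over vitamin C 15, against 3 for untreated replicate 2 with vitamin C replicate 1, and 1, 1 and 0 for the rest. These counts were not tested.

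**Figure D1:**
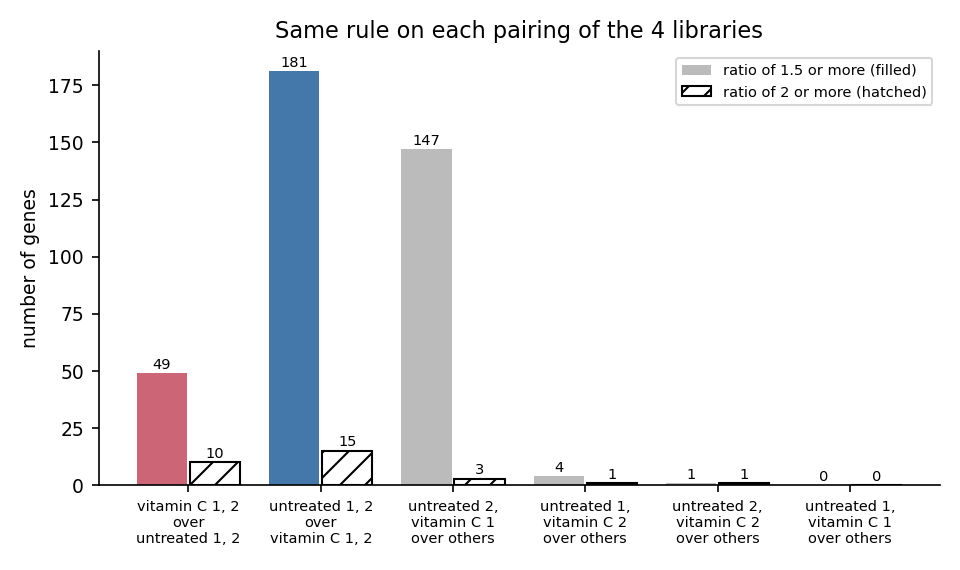
Number of genes (vertical axis) that the rule chose for each way of setting 2 libraries over the other 2, with filled bars for a ratio of 1.5 or more and hatched bars for 2 or more. The red bar is vitamin C over untreated (49 genes), the blue bar untreated over vitamin C (181) and the grey bars are pairings that mix the conditions, the highest with 147.

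Most of the 49 genes lay close to the limit of the rule. The median ratio of the lower vitamin C to the higher untreated value was 1.603, with quartiles of 1.54 and 1.69, and 23 genes had a ratio under 1.6. There were 10 genes at a ratio of 2 or more, the highest being 4.59, and the next gene below these had 1.86. By the means of each condition the genes were 1.55 to 8.17 times higher with vitamin C, with a median of 1.92, beside a median of 1.007 for all 9837 genes. The lowest accepted ratio was 1.501, of a gene on linkage group 5 from 834653 to 835167. Just outside stood a gene on linkage group 10 from 4268030 to 4268879, with 40.7 and 46.8 TPM untreated, 74.5 and 70.1 TPM with vitamin C and a ratio of 1.498, and a gene on linkage group 1 from 4251331 to 4252525 with a ratio of 1.491. For the minimum of 5 TPM, the 2 lowest accepted values were 5.96 and 6.37 TPM. The genes left out next, at 4.85 and 4.69 TPM, lay on linkage group 1 from 2275817 to 2276087 and on linkage group 8 from 188632 to 188848.

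**Figure D2:**
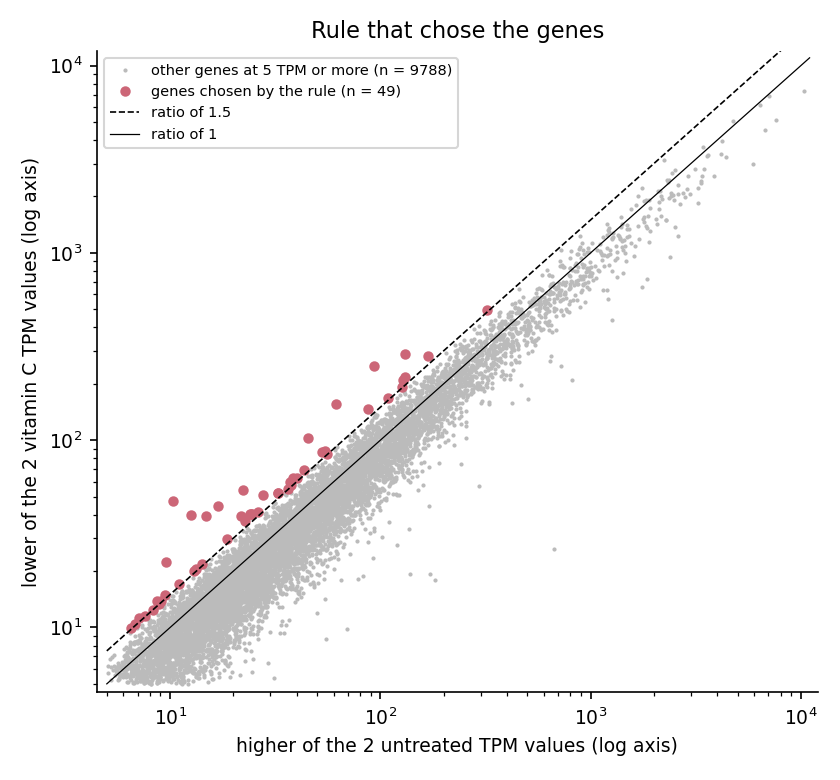
Lower of the vitamin C TPM values (vertical, log axis) against the higher of the untreated values (horizontal, log axis) for the 9837 genes with 5 TPM or more in all libraries, 1 point a gene. The 49 genes chosen (red) lie on or above the dashed line at a ratio of 1.5, most of them close to it, and the largest ratio is 4.59.

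The widest separation was at gene_25105, on scaffold 16 from 297985 to 300245 on the plus strand. Without treatment it had 10.3 and 5.96 TPM, and with vitamin C 64.8 and 47.1 TPM. The lower vitamin C value was 4.59 times the higher untreated one, while the untreated replicates differed 1.72-fold and the vitamin C replicates 1.38-fold. The next was gene_17533, on linkage group 7 from 2096507 to 2097578 on the minus strand, with 6.81 and 12.6 TPM untreated and 40.0 and 118 TPM with vitamin C. Its ratio was 3.18, and its vitamin C replicates were 2.96-fold apart, the widest of the 49 genes.

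The other 8 genes with a ratio of 2 or more differed in how closely their replicates lay together. On linkage group 1 from 3330242 to 3332633, the values were 13.5 and 14.7 TPM untreated and 40.6 and 39.4 TPM with vitamin C. On linkage group 2 from 3794062 to 3794589 they were 9.51 and 8.73 TPM against 22.6 and 22.4 TPM. A gene on linkage group 1 from 11945746 to 11947175 had 45.2 and 45.0 TPM untreated and 121 and 102 TPM with vitamin C. In these 3 the replicates of a condition were within 1.18-fold of each other. Close replicates were also found for the most abundant of the 10, on linkage group 1 from 2744521 to 2745442, with 132 and 117 TPM untreated and 288 and 289 TPM with vitamin C.

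Replicates lay further apart in the remaining 4. The gene on scaffold 12 from 150640 to 151649 had 92.9 and 59.3 TPM untreated and 248 and 287 TPM with vitamin C. One on linkage group 5 from 1897806 to 1899988 had untreated values of 45.4 and 61.2 TPM and vitamin C values of 155 and 217 TPM. One on linkage group 4 from 3157077 to 3159311 had 22.2 and 11.7 TPM untreated and 66.0 and 53.9 TPM with vitamin C. Here untreated replicate 1 was 1.90 times replicate 2, which is still a smaller step than that to vitamin C, at a ratio of 2.43. The last, on linkage group 1 from 4804459 to 4805833, had 16.7 and 17.0 TPM untreated and 44.3 and 58.8 TPM with vitamin C, and lies wholly inside another model, as given further on.

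**Figure D3:**
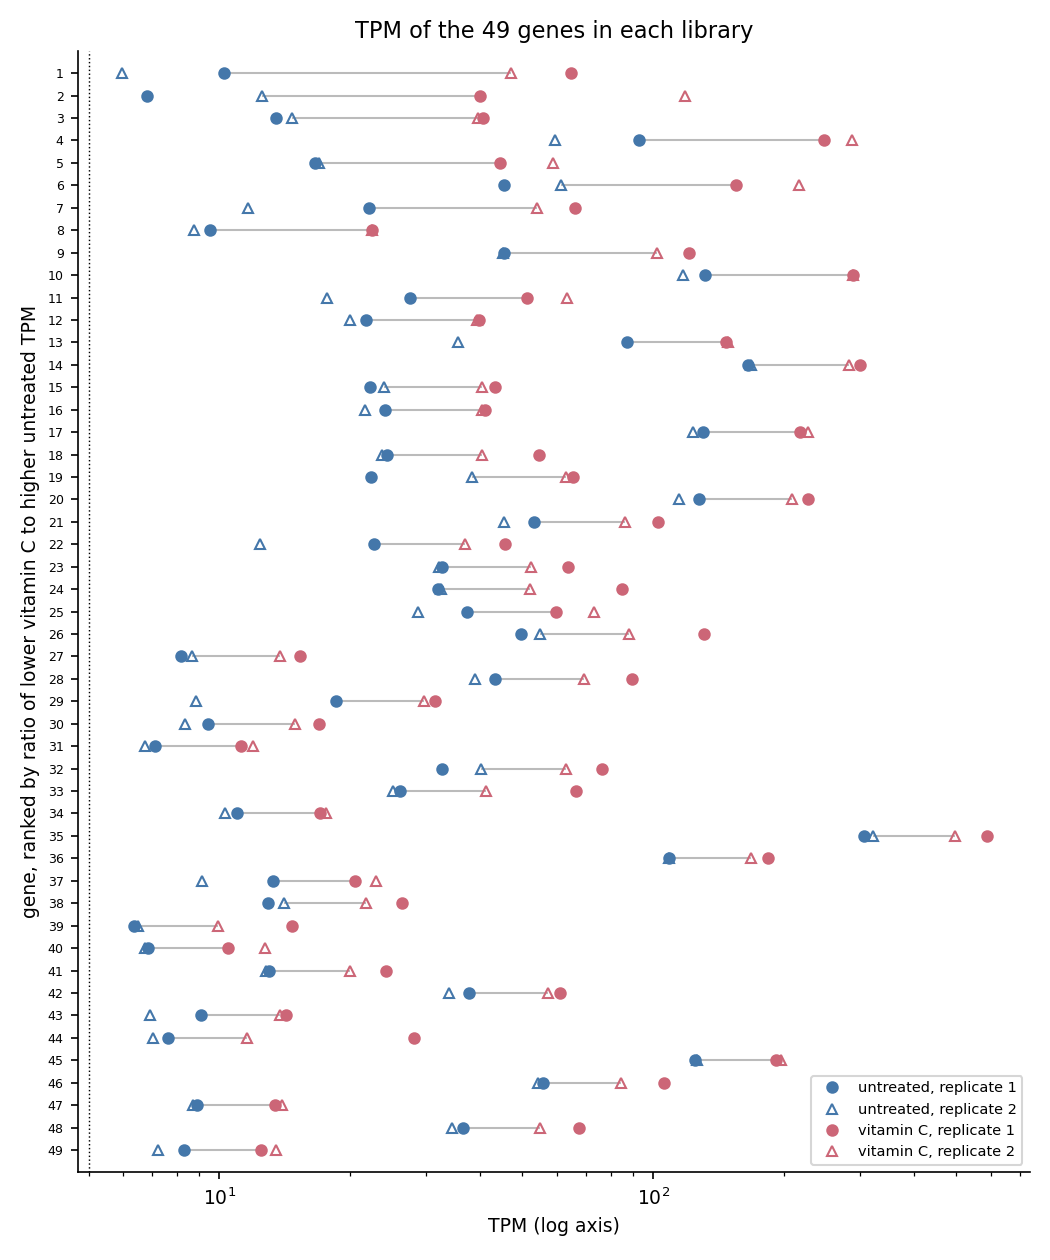
TPM (horizontal, log axis) of each of the 49 genes in each library, ordered from top to bottom by the ratio of the lower vitamin C to the higher untreated value, which the grey line spans. Blue marks untreated and red vitamin C, filled circles replicate 1 and open triangles replicate 2; the dotted line is the minimum of 5 TPM. The grey line is longest for the first 10 genes, with ratios from 4.59 to 2.19, and short for most of the rest.

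Of the 49 genes, 7 had an untreated mean of 100 TPM or more. The highest was on linkage group 10 from 2181229 to 2181936, with 307 and 321 TPM untreated and 586 and 496 TPM with vitamin C. On scaffold 11 from 1324754 to 1326276 the values were 165 and 168 TPM against 300 and 283 TPM. On linkage group 8 from 28286 to 28555, a model of 270 bp had 131 and 124 TPM untreated and 218 and 228 TPM with vitamin C. In these 3 genes the condition means were 1.72, 1.75 and 1.75 times apart, and the replicates at most 1.18-fold. Another on scaffold 11, from 1437144 to 1440139, had 125 and 126 TPM untreated, against 192 and 197 TPM. On linkage group 3 from 1289254 to 1291013 the values were 128 and 115 TPM untreated and 227 and 209 TPM with vitamin C. The sixth, on linkage group 10 from 1344403 to 1345148, had 109 and 109 TPM untreated and 184 and 168 TPM with vitamin C. Its untreated replicates were the closest of all 49 genes, 1.001-fold apart. The seventh is the gene on linkage group 1 from 2744521 given above. These abundant genes therefore differed between conditions by less than 2-fold with close replicates, the seventh alone reaching 2.32-fold.

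A further 21 genes had an untreated mean of 20 to 100 TPM, 3 of them among the 10 already given. In the other 18 the lower vitamin C value was 1.51 to 1.86 times the higher untreated one. Untreated replicates stood far apart in some of these. A gene on linkage group 6 from 3169629 to 3170274 had 87.2 and 35.4 TPM untreated, a 2.46-fold difference and the widest of the 49 genes, and 147 and 149 TPM with vitamin C. On linkage group 4 from 3885306 to 3886389 the untreated values were 22.4 and 38.3 TPM, and those with vitamin C 65.5 and 63.0 TPM. In both, the vitamin C replicates lay close together and the untreated ones did not. The reverse was seen on linkage group 4 from 3272420 to 3273866, with 31.9 and 32.5 TPM untreated and 84.7 and 52.1 TPM with vitamin C. The gene on linkage group 3 from 6998697 to 7001859 had 26.1 and 25.1 TPM untreated and 66.4 and 41.1 TPM with vitamin C. For scaffold 12 from 815358 to 817538 the values were 49.5 and 54.8 TPM and 131 and 87.8 TPM. In these 3, vitamin C replicate 1, the deepest library, was the high one.

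Close replicates in both conditions were found at several genes of this level. On scaffold 20 from 186923 to 191381, a model of 4459 bp, the values were 21.8 and 20.02 TPM untreated and 39.7 and 39.3 TPM with vitamin C. On linkage group 6 from 913259 to 913941 they were 24.2 and 21.7 TPM against 41.0 and 40.4 TPM. On linkage group 1 from 1548426 to 1549125 they were 22.3 and 24.0 TPM against 43.2 and 40.3 TPM. The conditions did not overlap at any of these genes, which the rule itself fixes. The longest model of the 49 genes, 7838 bp on linkage group 1 from 4266986 to 4274823, had 24.4 and 23.7 TPM untreated and 54.7 and 40.2 TPM with vitamin C. The second longest, 4579 bp on linkage group 10 from 2678491 to 2683069, had 36.4 and 34.3 TPM untreated and 67.4 and 54.8 TPM with vitamin C. In both of these long genes vitamin C replicate 1 was above replicate 2. The rest of this level, on linkage groups 1, 2, 4, 6 and 10 and scaffolds 19 and 20, ranged from 17.7 to 55.7 TPM in the untreated libraries and from 51.2 to 106 TPM with vitamin C.

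The last 21 genes had an untreated mean under 20 TPM, 6 of them with a ratio of 2 or more. Among the other 15 the ratio was 1.501 to 1.62. The lowest mean was that of a gene on scaffold 14 from 1067151 to 1067792, with 6.37 and 6.49 TPM untreated and 14.7 and 9.96 TPM with vitamin C. The shortest model, 192 bp on scaffold 17 from 494467 to 494658, had 6.84 and 6.76 TPM untreated and 10.5 and 12.8 TPM with vitamin C. On linkage group 1 from 1076490 to 1077050 the values were 7.61 and 7.02 TPM against 28.2 and 11.6 TPM. Vitamin C replicate 1 of this gene was 2.43 times replicate 2, so that the mean difference rests in large part on 1 library. On linkage group 1 from 10216234 to 10217001 it was the untreated replicates that differed, at 18.6 and 8.85 TPM, against 31.5 and 29.7 TPM with vitamin C. On linkage group 10 from 66089 to 67818 they were 22.8 and 12.4 TPM, against 45.7 and 36.9 TPM. In these 2 genes untreated replicate 1 was 2.10 and 1.84 times replicate 2. These steps were wider than the ratios of 1.59 and 1.62, which set the lower vitamin C value over the higher untreated one. By condition means the 2 genes were 2.23 and 2.35 times higher with vitamin C. Among the more even genes were 2 on linkage group 7. From 678094 to 679563 the values were 11.0 and 10.3 TPM untreated and 17.1 and 17.6 TPM with vitamin C. From 1973843 to 1974687 they were 8.18 and 8.65 TPM and 15.4 and 13.8 TPM. The 3 low genes of linkage group 5 stood between 6.94 and 14.1 TPM untreated and between 12.5 and 26.4 TPM with vitamin C. On scaffold 13 from 1121614 to 1122061 a gene had 9.42 and 8.35 TPM untreated and 16.9 and 15.0 TPM with vitamin C. On linkage group 10 from 1974562 to 1976860 the values were 7.10 and 6.76 TPM against 11.2 and 12.0 TPM, and on linkage group 4 from 1367365 to 1368754 they were 13.1 and 12.8 TPM against 24.2 and 19.99 TPM. The third shortest model, 411 bp on scaffold 14 from 110958 to 111368, had 8.90 and 8.69 TPM untreated and 13.4 and 13.9 TPM with vitamin C.

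The order of the replicates is part of the values the rule used and is given as a description. Untreated replicate 1 was above replicate 2 in 33 of the 49 (67.3%), against 34.9% of the 9837 genes. Vitamin C replicate 1 was above replicate 2 in 33 of 49 (67.3%), against 71.2%. The rule compares with the higher of the untreated values, which over the 9837 genes was mostly that of replicate 2. The median difference between replicates was 1.09-fold untreated and 1.18-fold with vitamin C, beside 1.20-fold and 1.17-fold for the 9837 genes. Untreated replicates were 1.5-fold or more apart in 9 of the 49 genes and vitamin C replicates in 4. In 11 genes both pairs of replicates lay within 1.1-fold. The lowest read coverage of any of the 49 genes was 18.1 and 16.8 in untreated replicates 1 and 2 and 37.0 and 27.5 in those with vitamin C, with medians of 68.5 and 67.1 against 211 and 144.

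Together the 49 genes took 0.219% and 0.205% of the total TPM without treatment and 0.445% and 0.424% with vitamin C. They were a small part of the transcripts in either condition. Values of both vitamin C libraries above both untreated ones, by any margin, were found in 24.5% of the 9837 genes, and below both in 23.4%.

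The comparison of conditions over all genes used limma on log2(TPM + 1), with 15107 genes above a mean of 0.05 TPM. In it 7 genes had an adjusted p under 0.05 (Benjamini-Hochberg) and lower values with vitamin C. Another 7 genes (0.0463%) passed with higher values, and 1 of the 49 was among these. This was gene_25105 on scaffold 16, where log2(TPM + 1) was higher by 2.67 with vitamin C (limma, adjusted p = 0.039, standard error 0.29). When only genes with a mean of 1 TPM or more were tested, 7 of the 49 genes passed, and with quantile normalization, with no filter or with limma without trend, 0 passed. With the replicate number as a block 13 passed, and with the numbers crossed, a fit chosen after seeing the data, 33 passed. With any library left out 0 of the 15107 genes passed in either direction, and 32 to 38 of the 49 kept an unadjusted p under 0.05. With all libraries, all 49 genes had an unadjusted p under 0.05, beside 4.98% of the genes tested and 6.23% of the 9837 genes higher with vitamin C. Their changes ran from 0.58 to 2.76 with a median of 0.92, beside a median of -0.02 for all genes tested. The rule selected on this contrast, so nothing is read from these counts. The adjusted p of the other 48 genes lay between 0.061 and 0.36 in limma, and 6 of them were under 0.1. These were the genes on linkage group 1 from 2744521, 3330242, 4804459 and 11945746, on linkage group 5 from 1897806 and on scaffold 12 from 150640.

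By level, the median of the untreated mean was 23.1 TPM for the 49 genes and 32.6 TPM for the 9837, and the median of the vitamin C mean was 57.3 and 32.5 TPM. Under 20 TPM lay 42.9% of the 49 by the untreated mean, against 33.2% of the 9837, and 20.4% by the vitamin C mean, against 33.9%. At 100 TPM or more lay 14.3% by the untreated mean, against 19.98%, and 24.5% by the vitamin C mean, against 20.2%. The rule sets the vitamin C values of its genes above the untreated ones, so whether these genes stand low or high beside the others depends on the condition by which they are placed, and nothing is read from it. When the 9837 genes were cut into 5 groups of like size by untreated mean, the lowest group, from 5.05 to 13.6 TPM, held 16 of the chosen genes (0.813%). The next groups held 10, 10 and 6, and the highest group, from 99.8 TPM up, held 7 (0.356%). The genes chosen in the opposite direction were fewest in the lowest group, with 20 of 181 (1.02%), and most in the middle one (2.64%). A gene lower with vitamin C needs an untreated value well above 5 TPM to pass the minimum, so the 2 directions are not alike at low levels. The highest level of a chosen gene was 586 TPM, though genes up to 10366 TPM were compared.

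The chosen genes spanned a median of 1375 bp from start to end of the model, introns included, with quartiles of 708 and 2155 bp. The 9837 genes spanned a median of 1508 bp (922 and 2367 bp) and all 23125 listed genes 1191 bp. The 10 genes with a ratio of 2 or more had a median of 1402.5 bp and lay between 528 and 2392 bp. Models up to 1000 bp made up 19 of the 49 (38.8%), against 28.6% of the 9837 and 43.6% of the 181 genes lower with vitamin C. Models of 3000 bp or more made up 4 (8.16%), against 15.7% and 3.87%. The larger share of short models was thus found in both directions. In 5 such groups by span, from short to long, 16, 8, 12, 8 and 5 genes were chosen, from 0.812% in the shortest group to 0.254% in the longest.

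Libraries also differed with span over all 9837 genes. From the shortest to the longest group, the median log2 deviation from the mean of the 4 libraries went from -0.02 to 0.22 in vitamin C replicate 1 and from 0.02 to -0.18 in untreated replicate 1. It went from 0.11 to 0.03 in untreated replicate 2 and from -0.09 to -0.06 in vitamin C replicate 2. Long models were thus high in 1 vitamin C library and low in 1 untreated library, while the other libraries moved little. With this trend removed from each library the rule chose 70 genes, of which 39 were among the 49, with a median span of 924.5 bp. What the trend contributes to single genes was not tested.

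**Figure D4:**
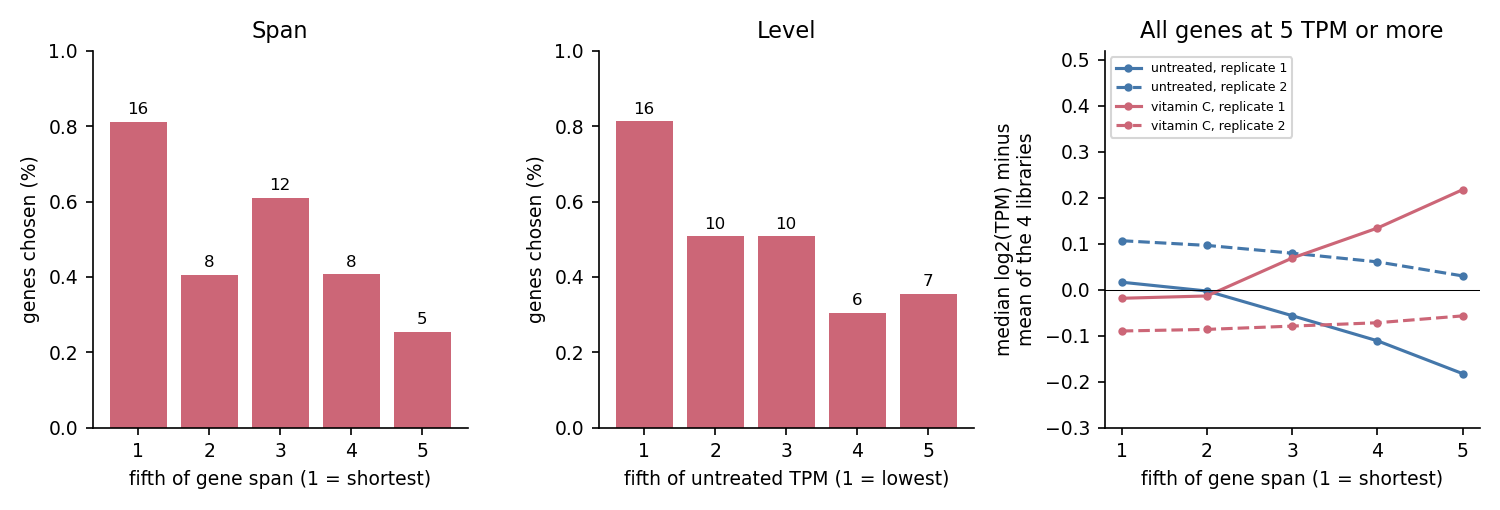
Share of genes chosen (vertical axis, percent; the number above each bar is the count) in 5 groups of like size by gene span (left) and by untreated TPM (middle), and the median deviation of each library from the mean of the 4, in log2(TPM), in the groups by span over all 9837 genes (right). The shares are highest in the shortest and the lowest group, 16 genes each; on the right the longest models have a median of 0.22 in vitamin C replicate 1 and -0.18 in untreated replicate 1.

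The genes were spread over the genome. They lay on 9 of the 10 linkage groups (37 genes, 0.470% of the genes at 5 TPM or more there) and on 8 of the 44 other scaffolds (12 genes, 0.609%). Linkage group 1 held 11, which is 22.4% of the 49, beside 21.3% of the 9837 genes. Linkage group 10 held 6, linkage group 4 held 5 and linkage group 5 held 4. On linkage group 5 only 231 genes reached the minimum, so its 4 genes made up 1.73% of them. Linkage group 3 held 2 of 1534 (0.130%), and linkage group 9 held 0 of 453. With so few genes per linkage group these shares are given as counts only. The plus strand carried 24 of the 49.

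No chosen gene was next to another. Chosen genes made up only 53 of the 13198 neighbours at 5 TPM or more of all 9837 genes, so nothing is read from this. The closest pair lay on linkage group 4, from 3126988 to 3128606 and from 3157077 to 3159311, 28.5 kb apart with 16 listed genes between them. On linkage group 1 the genes that start at 2744521 and 2778551 were 33.1 kb apart with 15 genes between, and those that start at 1076490 and 1133063 were 56.0 kb apart with 13 between. Within 100 kb of the first or last listed gene of a scaffold lay 4 of the 49 (8.16%), against 5.14% of the 9837 genes. The nearest to such an end was the gene of 270 bp on linkage group 8, at 26.7 kb.

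Overlaps with another model were found for 4 of the 49 (8.16%, 95% Wilson interval 3.22% to 19.2%), against 20.4% of the 9837 genes and 25.4% of the 181 genes lower with vitamin C. The interval covers counting error only. It takes the genes as independent, which genes of the same 4 libraries are not, and is no test against the 20.4%. The share depended on the processing, and was 18.6% of the 70 genes chosen with the span trend removed, 15.5% with quantile normalization, and 14.1%, 15.5%, 6.58% and 17.6% without untreated replicate 1, untreated replicate 2, vitamin C replicate 1 and vitamin C replicate 2. Under the other settings the share was 8.57% with a minimum of 10 TPM, 9.38% with FPKM and 9.52% with a minimum of 1 TPM. It was 10% with a ratio of 2, 12.0% with median-ratio scaling and 16.6% with a ratio of 5 to 4. All of these shares were below the 20.4% of the 9837 genes, and the difference was not tested. The kit marks strand, but no source used here gives the strand setting of the quantification, so reads of overlapping models may have been shared between them. The gene on scaffold 19 from 258930 to 260064, with 27.5 and 17.7 TPM untreated and 51.2 and 63.4 TPM with vitamin C, lies wholly inside a model of 4725 bp on the same strand. That partner had 45.0 and 73.6 TPM untreated and 72.7 and 39.6 TPM with vitamin C. The partner was high where the inner gene was low in both conditions. The gene on linkage group 1 from 4804459 to 4805833 shares its lower coordinate and its strand with a model of 3640 bp that reaches to 4808098. The partner had 23.8 and 25.3 TPM untreated and 18.9 and 14.2 TPM with vitamin C, so the inner model stood higher with vitamin C and the outer one lower. For these 2 genes a change in their own transcripts and a change in how reads were divided between models cannot be told apart. On opposite strands, the gene on linkage group 10 from 66089 to 67818 shared 743 bp with a partner at 30.1 and 23.5 TPM untreated and 25.9 and 24.2 TPM with vitamin C. The gene on linkage group 1 from 11196576 to 11197204 had 13.3 and 9.12 TPM untreated and 20.5 and 23.0 TPM with vitamin C, and shared 26 bp with a partner at 5.23 to 6.51 TPM in all libraries. The 45 genes with no overlap include 9 of the 10 with a ratio of 2 or more.

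Neighbours stood further away than for the 9837 genes. This difference was not tested and was not followed under other processing. The median distance to the next listed model upstream, in the direction of transcription, was 722 bp for the 49 genes and 373 bp for the 9837, and downstream 653 and 311 bp. Upstream distances of 2 kb or more were found for 10 of the 49 (20.4%), against 7.54%. The widest was 8419 bp, for the gene of 270 bp on linkage group 8. The 2091 bp upstream of gene_25105 also held no listed model. An upstream neighbour on the opposite strand, a divergent pair, was found for 22 of 49 (44.9%), against 55.7%. Identifiers skip numbers, so unlisted models may lie in these gaps.

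The neighbours were also more often silent, which was likewise not tested. Of the 98 neighbours on either side, 14 had a mean of 0.05 TPM or less in both conditions (14.3%), against 6.88% of the neighbours of the 9837 genes. Silent genes stood on both sides of 4 of the 49 (8.16%), against 1.23%. These 4 were the gene on linkage group 2 from 3794062 to 3794589, with 9.51 and 8.73 TPM untreated and 22.6 and 22.4 TPM with vitamin C; the genes on linkage group 1 from 1548426 and 1133063; and the gene on linkage group 10 from 1344403, at 109 TPM in both untreated libraries. All 8 of their neighbours, which are among the 14, were listed at 0 TPM in all 4 libraries. Conversely, neighbours on both sides reached 5 TPM in every library for 14 of the 49 (28.6%), against 47.2% of the 9837 genes.

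Of the neighbours, 53 had 5 TPM or more in all libraries. None of them was chosen in either direction. All 9837 genes had 13198 such neighbours, of which 53 were chosen genes and 248 (1.26%) were chosen in the opposite direction. With shares this small, nothing is read from the absence. By condition means the 53 neighbours of the chosen genes stood at a median of 1.08 times untreated with vitamin C. Their quartiles were 0.824 and 1.247, beside a median of 0.997 for the neighbours of all 9837 genes. Both vitamin C values were above both untreated values in 22 of the 53 (41.5%), against 22.9%, and below in 12 (22.6%), against 24.5%. Genes that share a neighbourhood, libraries and span are not independent, and this difference was not tested. Upstream of gene_25105, the neighbour on the same strand had 61.1 and 59.2 TPM untreated and 80.6 and 69.4 TPM with vitamin C. On linkage group 5 the gene from 834653 had a downstream neighbour with 30.7 and 23.4 TPM untreated and 46.2 and 43.9 TPM with vitamin C. Next to the gene on linkage group 4 from 1367365, the upstream neighbour, 35 bp away, had 40.0 and 42.0 TPM untreated and 67.6 and 52.6 TPM with vitamin C. Other neighbours stood lower with vitamin C. Upstream of the gene on linkage group 1 from 2744521, the values were 35.0 and 62.2 TPM untreated and 34.5 and 24.6 TPM with vitamin C. Downstream of the gene on linkage group 1 from 11945746 they were 26.9 and 31.5 TPM and 18.1 and 20.8 TPM.

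**Figure D5:**
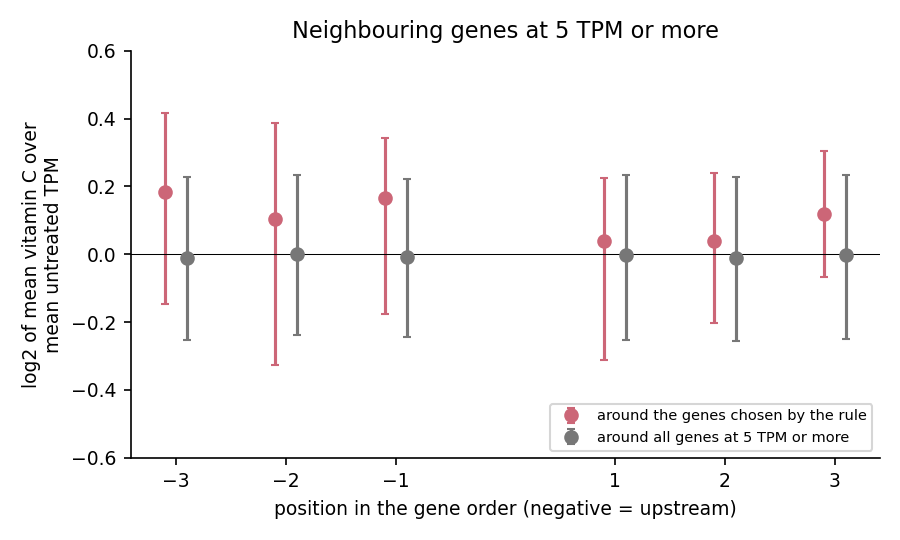
Change between conditions, as log2 of the mean vitamin C over the mean untreated TPM (vertical axis), of the genes 1 to 3 positions upstream (negative) and downstream of the chosen genes (red, 23 to 29 neighbours per position) and of all 9837 genes (grey), for neighbours with 5 TPM or more in all libraries. Points are medians and bars quartiles; the red medians lie between 0.04 and 0.18, the grey ones at -0.01 to 0.00, and the quartiles overlap at every position.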

How the data were processed

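Expression was measured by RNA-seq in 2 untreated and 2 vitamin C libraries, grouped by the sample titles. Per the paper's methods, the authors used BBDuk for trimming, hisat2 for alignment against the V2 genome of L. bicolor, samtools to drop duplicates and StringTie for expression, giving a table of 23125 genes per library. FastQC is also named in the submitters' notes. The deposited TPM values sum to 1000000 in each library. The deposited FPKM divides by gene length and by the aligned total, and the deposited coverage is the mean read depth over a gene and is not scaled. TPM is not a count, so no count model was used, and limma 3.58.1 in R 4.3.3 with trend was run on log2(TPM + 1), which understates changes of low genes. Descriptive values came from scripts with pandas 2.3.3, numpy 2.4.6 and scipy 1.17.1 (Python 3.11.15), and both programs were tested on simulated data. Neighbours are the next listed models by start position. Genes were named by the largest ratios, the highest levels, the nearest to each limit, span extremes, limma calls and overlaps, and some further genes were chosen after their values were seen. The genes, rule and tests were chosen with earlier results of these data known. Gene lists by product and a measure of exon length could not be used.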

Additional observations from a re-analysis of the deposited data

How the results depend on the processing

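The number of genes chosen, 49, was 32 with FPKM in place of TPM (31 of them among the 49), 84 with a minimum of 1 TPM, 410 with a ratio of 5 to 4 and 10 with a ratio of 2. With 1 library left out the rule has fewer values to meet by its construction. It then chose 361 genes without untreated replicate 1, 148 without untreated replicate 2, 76 without vitamin C replicate 1 and 449 without vitamin C replicate 2. All 49 genes were among those chosen each time. Quantile normalization gave 58 genes (36 shared), scaling by the median ratio 50 (38 shared) and removal of the span trend 70 (39 shared). The median span became 1857 bp with a ratio of 5 to 4 and ranged from 1038 to 1918 bp with a library left out. The share on linkage group 1 became 40.0% with a ratio of 2. Genes next to another chosen gene, 0 of the 49, numbered 2 with the span trend removed, 34 with a ratio of 5 to 4 and 2 to 41 with a library left out. The share of overlapping models, 8.16%, was 9.38% with FPKM, 12.0% with median-ratio scaling and 15.5% with quantile normalization. It was 16.6% with a ratio of 5 to 4, 18.6% with the span trend removed and 6.58% to 17.6% with a library left out. With a minimum of 1 and of 10 TPM it was 9.52% and 8.57%, and with a ratio of 2 it was 10%.

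In limma, 7 genes were higher with vitamin C, 13 when only genes with a mean of 1 TPM or more were tested and 14 at an adjusted p under 0.1. With any library left out 0 passed, while 748 and 417 genes were higher at an unadjusted p under 0.05 without untreated replicates 1 and 2, and 165 and 444 without vitamin C replicates 1 and 2. These fits take the spread of the lone library from the other condition. The change of gene_25105 ranged from 2.32 to 3.02 in these fits. Its adjusted p from limma was 0.41 with no filter, 0.11 with quantile normalization and 0.096 without trend. Of the genes at an unadjusted p under 0.05, 38.01% were higher with vitamin C, and 27.4% with FPKM, 45.8% with quantile normalization, 25.9% without vitamin C replicate 1 and 48.3% without vitamin C replicate 2. Quantile normalization moved the median change of all genes from -0.02 to 0.02. The replicate block gave 43 higher genes, 13 of them among the 49. No source ties the replicate numbers to a common culture, and the differences between replicates correlated at -0.26 across the 15107 genes tested and at -0.50 across the 9837 genes at 5 TPM or more. The crossed pairing, added after seeing the data, gave 100 higher genes, 33 of them among the 49. Both fits have 1 residual degree of freedom, and the cause of these differences was not tested.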

Other observations

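The minimum of 5 TPM left out further genes that stood higher with vitamin C. The ratio of 1.5 was also met by 121 genes with a library under 5 TPM, of which 29 were listed at 0 TPM in an untreated library. In 18 of the 121 both vitamin C libraries reached 5 TPM. A separate count gave 3 genes that were listed at 0 TPM in each untreated library and reached 5 TPM in each vitamin C library. Their ratio has 0 as its divisor and is not defined, so these 3 were counted apart from the 121. The 147 genes chosen with untreated replicate 2 and vitamin C replicate 1 over the other libraries had a median span of 1777 bp, against 1375 bp for the 49 and 1081 bp for the 181 genes lower with vitamin C, and their highest ratio was 2.09.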
